A study of Mus musculus with 2 samples.

Results

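Glypicans and syndecans are the principal cell surface proteins that carry heparan sulfate. The members described here are the glypicans *Gpc1*, *Gpc2*, *Gpc3*, *Gpc4* and *Gpc6*, the syndecans *Sdc1*, *Sdc2*, *Sdc3* and *Sdc4*, and the linker enzyme gene *B3gat3*. They were chosen by gene symbol, with earlier results of these data known. They are 10 of the 31053 genes listed for the E15.5 library and 10 of the 27998 listed for E17.5. *Gpc5*, the remaining glypican, had 9 UMIs in the E15.5 and 5 in the E17.5 labelled cells and is not a member.

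Heparan sulfate proteoglycans are core proteins with long, sulfated sugar chains that bind FGF, BMP, Wnt and Hedgehog ligands at the cell surface. Glypicans are held in the membrane by a lipid anchor, whereas syndecans span the membrane and have a short cytoplasmic tail. Each chain starts on a short linker of sugars built on a serine of the core protein, and B3gat3 adds the glucuronic acid that completes this linker, for heparan sulfate and chondroitin sulfate chains alike. In the skull, these chains are known for their part in FGF and Hedgehog signaling during bone formation, and loss of *GPC3* in humans causes an overgrowth syndrome.

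The data are from coronal sutures of wildtype C57/BL6 mouse embryos, with 1 library at E15.5 (10 pooled sutures) and 1 at E17.5 (16 sutures). E15.5 tissue was dissociated with Collagenase II and Dispase, followed by removal of dead cells, and E17.5 tissue with Collagenase IV, followed by cell sorting. The E17.5 tissue came from 2 litters in 3 batches that were digested and sorted apart, one of 10 sutures from the first litter and the other two of 3 sutures each from the second. The E17.5 barcodes carry suffixes 1 to 3, but no source ties a suffix to a batch or litter, so the suffixes are given side by side and not as replicates. Stage, embryos, dissection, enzyme, sorting and counting software thus differ together and cannot be told apart, and no test between the stages was made.

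Levels are given as CPM, the unique molecular identifiers (UMIs) of a gene per 1000000 UMIs of a cluster, with exact Poisson 95% intervals in parentheses that cover counting error only. The authors' labels place cells in 15 clusters: 4 osteogenic (OG1 to OG4, with OG4 the osteoblasts), 2 proliferative osteogenic (PO1, PO2), 4 ectocranial (EC1 to EC4), 4 meningeal (MG1 to MG4) and 1 ligament-like (LIG). The E15.5 library had 5335 labelled cells, with 48607817 UMIs, and the E17.5 library 6830, with 92585034. The paper names myeloid cells, chondrocytes, pericytes and other types among its further cells, but these labels leave them out. All markers of the osteogenic, ectocranial, ligament and meningeal layers were higher in their own layer in both libraries. MG1 had 28 cells at E15.5 and none in E17.5 suffix 1, so its values there have wide intervals or are missing. At E15.5 the summed level of 7 mast cell markers was 413 CPM in OG4, against a median of 76.4 over the clusters. In OG1 at E15.5, 6 skeletal muscle markers reached 890 CPM (median 20.5). Keratinocyte markers were at 481 CPM there (median 39.2) and granulocyte markers at 47.3 CPM (median 1.95). Markers of neurons were at 675 CPM in OG2 at E15.5 (median 34.1) and at 105 CPM in OG4 at E17.5 (median 13.8), and those of chondrocytes were highest in MG1 in both libraries, at 1615 and 600 CPM. Their part in the levels of the members was not tested. The clusters were defined by the authors on these same cells, so levels by cluster are a description.

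The enzyme and 1 member of each core protein family, *B3gat3*, *Gpc1* and *Sdc3*, had their highest level among the labelled clusters in OG4 osteoblasts in both libraries. *Gpc3* had its lowest level in OG4 in both. *B3gat3*, *Sdc3* and *Gpc3* are therefore shown with their promoters, as RefSeq gives them for GRCm38.p6 from 250 bases before to 50 bases after the gene start, 5′ to 3′ on the gene's strand. Capitals mark the GC box GGGCGG or its reverse CCGCCC, which 35.7% of all 32851 promoters in that table hold.
B3gat3, chr19:8920143-8920442, plus strand: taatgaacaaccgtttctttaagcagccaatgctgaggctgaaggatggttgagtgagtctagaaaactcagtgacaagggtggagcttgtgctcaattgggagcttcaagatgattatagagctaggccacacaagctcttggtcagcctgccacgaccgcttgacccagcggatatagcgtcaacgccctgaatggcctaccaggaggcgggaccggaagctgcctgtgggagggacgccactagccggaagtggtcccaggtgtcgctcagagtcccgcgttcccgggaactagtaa
Sdc3, chr4:130792287-130792586, plus strand: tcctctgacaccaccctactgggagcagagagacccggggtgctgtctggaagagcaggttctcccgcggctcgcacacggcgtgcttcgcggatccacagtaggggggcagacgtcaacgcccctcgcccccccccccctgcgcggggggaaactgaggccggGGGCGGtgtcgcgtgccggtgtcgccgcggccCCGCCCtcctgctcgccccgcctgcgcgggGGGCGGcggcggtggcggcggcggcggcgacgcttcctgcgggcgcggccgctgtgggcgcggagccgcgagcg
Gpc3, chrX:52613925-52614224, minus strand: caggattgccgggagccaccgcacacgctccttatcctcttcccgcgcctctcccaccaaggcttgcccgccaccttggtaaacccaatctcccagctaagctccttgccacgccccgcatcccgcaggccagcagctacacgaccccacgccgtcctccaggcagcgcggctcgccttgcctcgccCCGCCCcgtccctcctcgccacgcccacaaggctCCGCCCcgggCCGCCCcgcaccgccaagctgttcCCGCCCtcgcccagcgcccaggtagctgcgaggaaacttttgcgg
The *B3gat3* promoter held no GC box, 14 CG dinucleotides and 55.3% G or C. The *Sdc3* promoter held 3 GC boxes and 44 CG dinucleotides, more than 97.8% of all promoters in the table, and the *Gpc3* promoter held 4 GC boxes and 30 CG dinucleotides. The RUNX site TGTGGT or its reverse ACCACA, present in 16.8% of all promoters, and the TATA box TATAAA or its reverse TTTATA, present in 13.6%, were not found in any of these 3 windows. A promoter was found for 7 of the 10 members.

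In the GENCODE annotation of GRCm38, *B3gat3* spans chr19:8920374-8927236 and is one of the shortest members, with 6.9 kb. *Gpc4* (chrX:52053021-52165252) and *Gpc3* (chrX:52272426-52613950) lie on the minus strand of the X chromosome with a gap of 107.2 kb between them. *Gpc6* (chr14:116925315-117976544) is the longest member, with 1051.2 kb, and lies 400.1 kb from *Gpc5* on the same strand. *Gpc1* is at chr1:92831645-92860779 and *Gpc2* at chr5:138273655-138280005. The syndecans are on separate chromosomes, with *Sdc1* at chr12:8771323-8793715, *Sdc2* at chr15:32920723-33034935, *Sdc3* at chr4:130792537-130826319 and *Sdc4* at chr2:164424247-164443887. The identifiers of all members were the same in both matrices.

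Among the labelled clusters, *B3gat3* was set apart by OG4 alone. In the E15.5 library it was at 96.7 CPM (82.9–112) in OG4 and between 19.3 CPM in MG3 and 35.3 CPM in PO1 in the other 14 clusters. In the E17.5 library it was at 70.7 CPM (65.7–76) in OG4 and between 16.3 CPM in MG4 and 33.8 CPM in EC2 elsewhere. No other cluster's interval reached that of OG4 in either library. The level in OG4 was 3.87 times (3.28–4.54) that of all other labelled E15.5 cells and 2.63 times (2.42–2.86) at E17.5. OG3 was at 31.7 and 32 CPM, within the range of the remaining clusters.

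The osteoblast level of *B3gat3* was seen in each E17.5 suffix, at 82.4, 63.5 and 73 CPM in suffixes 1, 2 and 3, which was 2.82, 2.38 and 2.79 times that of the other labelled cells of the suffix. Cells thinned to 3000 UMIs had a *B3gat3* UMI in OG4 in 27.3% (20.8–34.5, Clopper-Pearson) of E15.5 cells and in 17.8% (14.7–21.4) of E17.5 cells. Myeloid-like cells, which lie outside the 15 labelled clusters, had one in 7.03% (4.68–10.1) and 7.1% (4.97–9.78) of cells after the same thinning. Without thinning, the shares were 53.7% and 66.6% in OG4, at median depths of 7352 and 19349 UMIs, and 23.9% and 22.8% in myeloid-like cells, at 8843 and 9552. The other labelled clusters thus lay around the level in myeloid-like cells (28.6 and 26.2 CPM). Chondrocyte-like cells, also without a label, had *B3gat3* at 60.2 CPM (55.5–65.1) at E15.5, between OG4 and every other labelled cluster, and at 38.4 CPM (31.9–45.8) at E17.5. After thinning, 17% (14.5–19.7) and 8.2% (5.43–11.8) of them had a *B3gat3* UMI, and 51.6% and 29.6% did before it, at median depths of 11912 and 9799 UMIs.

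Markers of other cell types were also found in OG4, and their part in its levels of *B3gat3*, *Gpc1* and *Sdc3* was not tested. Of the 413 CPM of mast cell markers in OG4 at E15.5, *Cma1* gave 224 CPM, with a UMI in 63 of 190 cells. *Cpa3* gave 81.8 CPM in 19 cells and *Tpsb2* 68.5 CPM in 18, and *Mcpt4* and *Ms4a2* had 2 UMIs each. Mast-like cells had *B3gat3* at 24.6 CPM, *Gpc1* at 1.42 and *Sdc3* at 3.31 in that library. At E17.5 the mast cell markers summed to 29 CPM in OG4, against a median of 33.6. The neuron markers there were almost all *Tubb3*, a tubulin gene, with 103 CPM and a UMI in 352 of 527 cells, whereas *Elavl3* was at 0 and the 5 others had 2 to 12 UMIs each.

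**Figure D1:**
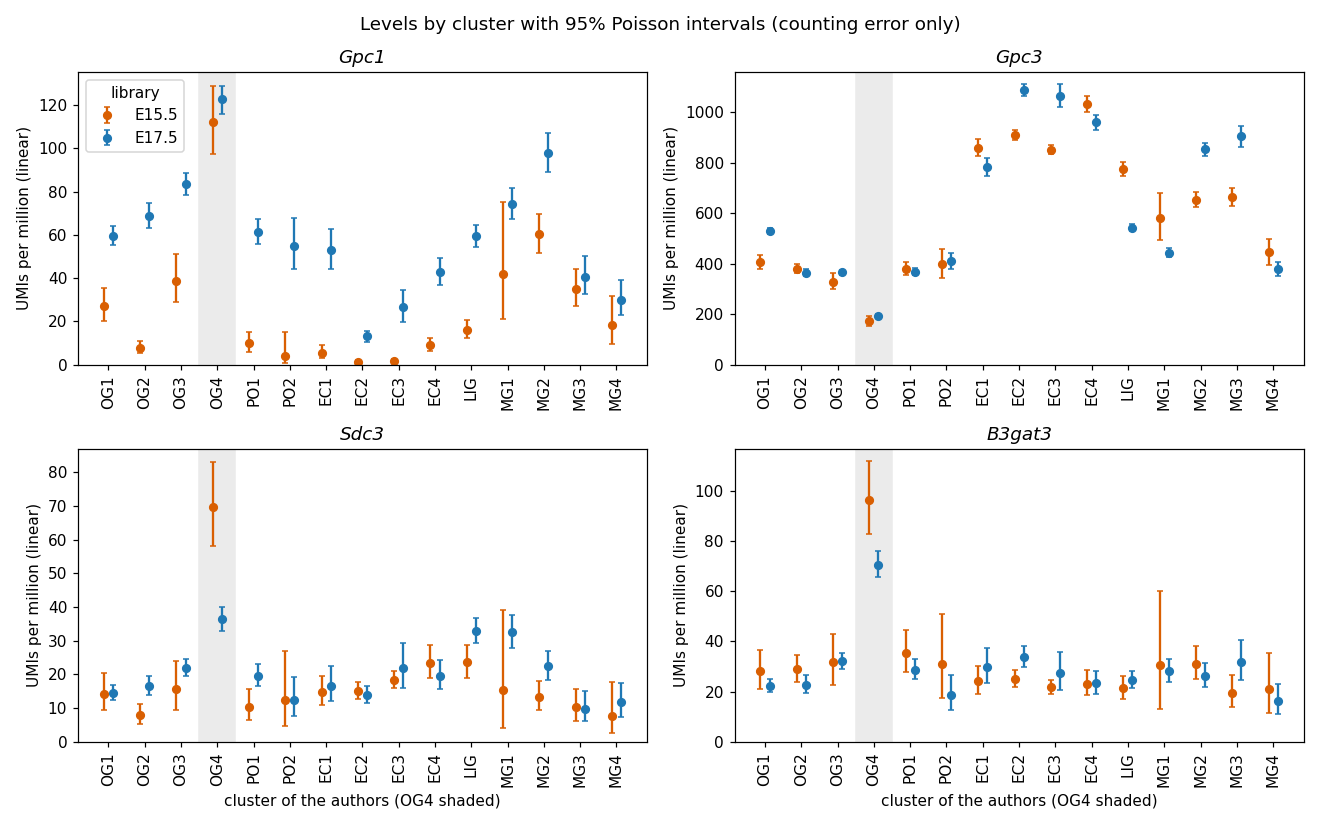
Levels of *Gpc1*, *Gpc3*, *Sdc3* and *B3gat3* (CPM, linear axis) in the 15 clusters, with E15.5 in orange, E17.5 in blue, bars for the 95% Poisson intervals and OG4 shaded. *Gpc1*, *Sdc3* and *B3gat3* are highest in OG4 in both libraries, *Gpc3* is lowest there, and *Gpc1* is higher at E17.5 than at E15.5 in every cluster.

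*Gpc1*, a glypican known to bind FGF ligands, was highest in OG4 and second in MG2 in both libraries. At E15.5 it was at 112 CPM (97.3–129) in OG4, 60.3 CPM (51.8–69.8) in MG2 and 1.19 CPM (0.596–2.14) in EC2. In E17.5 cells it was at 123 CPM (116–129) in OG4, 97.7 CPM (89.1–107) in MG2 and 13 CPM (10.6–15.7) in EC2. No other cluster's interval reached that of OG4 in either library.

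Within the osteogenic layer at E15.5, *Gpc1* was at 27 CPM in OG1, 7.56 in OG2, 38.6 in OG3 and 112 in OG4. The corresponding values at E17.5 were 59.5, 68.9, 83.4 and 123 CPM. OG2 was thus below OG1 and OG3 at E15.5, with intervals that did not overlap. At E17.5 it lay between them, below OG3 beyond counting error, but its interval (63.2–74.9) overlapped that of OG1 (55.2–64). After thinning to 3000 UMIs, 2.07% of OG2 cells (0.995–3.77) had a *Gpc1* UMI at E15.5 and 17.2% (14.1–20.8) at E17.5. Before thinning, the shares were 5.33% and 58.6%, at median depths of 7723 and 15134 UMIs. Myeloid-like cells, taken here as a measure of free RNA, had one in 0.521% and 1.88% of thinned cells and in 1.76% and 9.39% before thinning, at median depths of 8843 and 9552 UMIs.

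Free RNA limits what the low values of *Gpc1* can show. Its level in myeloid-like cells was 1.84 CPM at E15.5 and 9.21 CPM (6.74–12.3) at E17.5. Mast-like cells had 17 CPM (4.63–43.5) at E17.5, from only 4 UMIs in 33 cells. EC2 and EC3 at E15.5 (1.19 and 1.59 CPM) and EC2 at E17.5 (13 CPM) were at or near these levels and are read as background. In OG4, *Gpc1* was 9.18 times (7.78–10.8) the other labelled E15.5 cells and 2.05 times (1.92–2.18) at E17.5, and it was at 108, 121 and 129 CPM in E17.5 suffixes 1, 2 and 3.

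*Gpc3*, an inhibitor of Hedgehog signaling that has been studied in overgrowth, had the reverse pattern. At E15.5 it was highest in EC4 with 1033 CPM (1002–1065), followed by 910 in EC2, 858 in EC1 and 852 in EC3, and lowest in OG4 with 172 CPM (153–192). At E17.5 it was highest in EC2 with 1087 CPM (1065–1111), with EC3 at 1065 CPM not differing beyond counting error, and lowest in OG4 with 193 CPM (185–202). The ectocranial clusters lay above every osteogenic cluster in both libraries, and the highest cluster was 6.01 and 5.63 times the lowest. OG4 was 0.23 and 0.328 times the other labelled cells.

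Osteogenic clusters other than OG4 had *Gpc3* at 329 to 405 CPM in the earlier library and at 363 to 529 CPM in the later. The low level in OG4 was seen in each E17.5 suffix, at 229, 192 and 180 CPM. Cells without a label gave values up to the OG4 level. Myeloid-like cells had *Gpc3* at 96.6 CPM (87–107) and 58.4 CPM (51.9–65.5), osteoclast-like cells at 42.5 and 64.6 CPM, and chondrocyte-like cells at 164 CPM (157–172) and 189 CPM (174–204), the last not differing from OG4 beyond counting error. In EC2 the suffixes differed, with *Gpc3* at 1.46 times the other labelled cells in suffix 1 and 2.5 and 2.43 times in suffixes 2 and 3. The meningeal clusters MG2 and MG3 were higher at E17.5 (853 and 905 CPM) than at E15.5 (653 and 663 CPM), whereas LIG was lower (543 against 775 CPM).

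*Gpc4* had the most even levels. They ran from 22.6 CPM in MG4 to 61.1 CPM in MG1 at E15.5, and from 30.8 in EC1 to 51 in MG2 at E17.5. The intervals of 11 E15.5 clusters and of 5 E17.5 clusters overlapped that of the highest, so that little of the order can be read.

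*Gpc6* was lower in each of the 6 osteogenic clusters, PO1 and PO2 included, than in any other labelled cluster in both libraries. Not all of this was resolved, and at E15.5 only OG4 was clear of every other layer. There, OG2 (23.8–34.4), OG3 (36.3 CPM), PO1 and PO2 overlapped MG2 (34.1–49.1). OG1 (18.4–33.1) overlapped MG1 (32.1–94.5). At E17.5 only OG3 (32.5 CPM) overlapped another layer, in LIG (34.9–43). At E15.5 *Gpc6* was highest in LIG with 71.7 CPM (63.6–80.5), which MG3, MG1 and MG4 (49.7, 34.2–69.7) overlapped, and lowest in OG4 with 21 CPM (14.9–28.8). At E17.5 it was highest in MG4 with 151 CPM (134–170), followed by EC2 with 106 and MG3 with 97, and lowest in OG1 with 13 CPM (11–15.2). No interval reached that of MG4 at E17.5, whereas the first place at E15.5 was not resolved. MG4 was 3.04 times higher at E17.5 (2.12–4.51), EC2 2.04 times (1.82–2.29), and LIG 0.541 times (0.462–0.634). MG4 held 7 cells in suffix 1, where *Gpc6* was at 77.4 CPM (28.4–169), against 171 and 136 CPM in suffixes 2 and 3. Chondrocyte-like cells had *Gpc6* at 123 CPM (116–130) and 173 CPM (159–188), above LIG at E15.5 and overlapping MG4 at E17.5.

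*Gpc2*, known from the developing nervous system, had 7 UMIs in the labelled E15.5 cells and 20 in those of E17.5. This is under the 50 UMIs required in each library, and nothing can be read from it about clusters. The other 9 members passed this minimum.

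**Figure D2:**
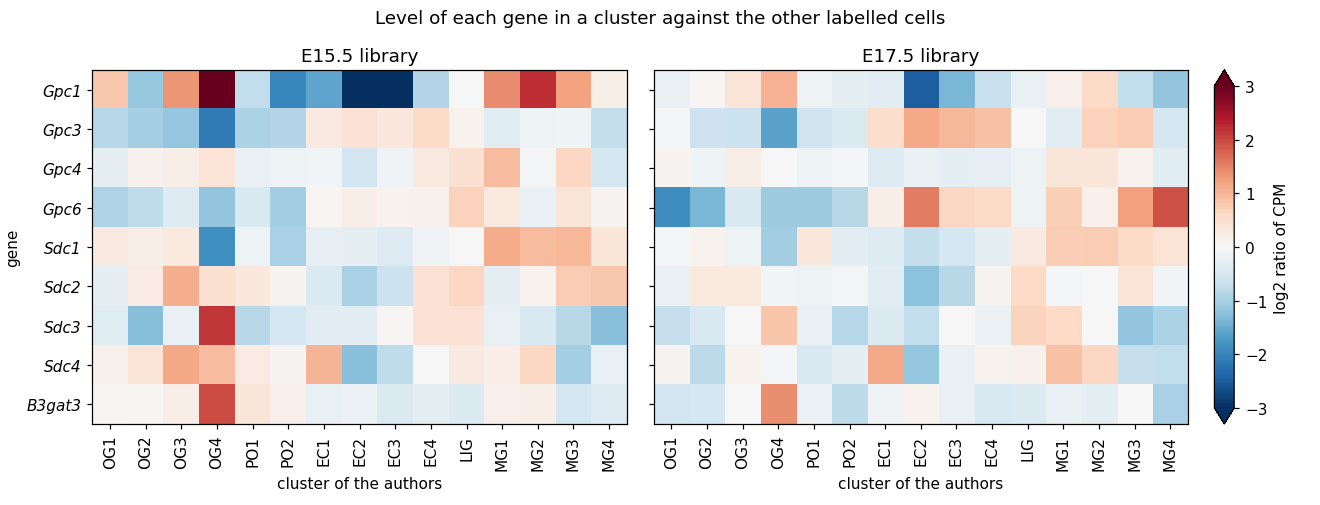
Log2 ratio of a member's CPM in each cluster to that in all other labelled cells, for the 9 members with at least 50 UMIs in each library, in the E15.5 (left) and E17.5 (right) libraries. Red is higher and blue lower than the other cells, and the OG4 column is red for *Gpc1*, *Sdc3* and *B3gat3* and blue for *Gpc3*, *Gpc6* and *Sdc1* in both panels.

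*Sdc1*, a syndecan best known from epithelia and plasma cells, was highest in the meningeal layer among the labelled cells. Pericyte-like cells, which have no label, were at 144 CPM (128–160) at E15.5 and 228 CPM (209–249) at E17.5, the latter above every labelled cluster. Among the labelled clusters, the levels were as follows. At E15.5 it was at 183 CPM (135–243) in MG1, 163 in MG3, 155 in MG2 and 108 in MG4, and at E17.5 at 165, 152, 168 and 136 CPM in the same order of clusters. MG4 (84.8–136 and 120–153) was not clear of other layers, overlapping among others OG3 (86.1–122) at E15.5 and PO1 (117–134) at E17.5. *Sdc1* was lowest in OG4, with 24.3 CPM (17.7–32.6) and 52.8 CPM (48.5–57.4). The other osteogenic clusters were at 43.4 to 103 CPM and 81.5 to 125 CPM, so OG4 stood below every one of them, although its interval overlapped that of PO2 at E15.5 (26.8–66.3).

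Among the labelled clusters, *Sdc2*, a syndecan common in mesenchyme, had its highest values in OG3 at E15.5 with 172 CPM (150–196) and in LIG at E17.5 with 257 CPM (247–268), and its lowest in EC2 in both, with 46.5 and 81 CPM. MG3 overlapped the highest in both libraries, with 137 CPM (121–154) and 233 CPM (212–255), so a change of the leading cluster was not resolved. OG3 and LIG did change order beyond counting error, with LIG at 122 CPM (111–133) at E15.5 and OG3 at 212 CPM (204–220) at E17.5. EC4 was at 108 and 190 CPM, above the other ectocranial clusters in both libraries. Pericyte-like cells, without a label, had *Sdc2* at 182 CPM (165–200) at E15.5, overlapping OG3, and at 221 CPM (202–242) at E17.5, below LIG.

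*Sdc3*, a syndecan of the nervous system and of skeletal precursors, led in OG4 in both libraries. In the earlier library it was at 69.6 CPM (58–82.9) there and between 7.52 CPM in MG4 and 23.6 CPM in LIG elsewhere. At E17.5 OG4 was at 36.3 CPM (32.7–40.1), and LIG (32.9) and MG1 (32.5) did not differ from it beyond counting error. OG4 thus stood alone at E15.5 and not at E17.5. The ratio to other labelled cells was 4.39 at E15.5 and 1.79 at E17.5, with 2.05, 1.71 and 1.78 in suffixes 1, 2 and 3. In myeloid-like cells *Sdc3* was at 9.45 CPM (6.62–13.1) in the earlier library and at 33.6 CPM (28.7–39.1) in the later, which did not differ from OG4 beyond counting error. After thinning, 17% of OG4 and 2.08% of myeloid-like cells had an *Sdc3* UMI in E15.5, whereas in E17.5 it was 9.49% and 9.81%. Before thinning these shares were 45.3% and 8.31%, and 47.2% and 29.9%, at the median depths given for *B3gat3*. Endothelial-like cells were at 16.8 and 23.8 CPM and osteoclast-like cells at 1.54 and 10.1 CPM, the latter close to MG3 (9.8) and MG4 (11.6) at E17.5.

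*Sdc4*, a syndecan of focal adhesions, was high in EC1 and low in the neighboring EC2. In EC1 it was at 64 CPM (55.4–73.6) at E15.5 and 96.1 CPM (84.4–109) at E17.5, and in EC2 at 15.7 and 21.4 CPM, the lowest values in both libraries, with MG3 and MG4 (16.8 and 28.6) at E15.5, and MG4, OG2 and MG3 (27.4 to 28.4) at E17.5, overlapping. EC1 was 2.04 and 2.19 times the other labelled cells, and 2.58, 2.53 and 1.98 times in the 3 suffixes. OG3 was the highest cluster at E15.5 with 71.9 CPM, from which EC1, OG4 (61.9), MG2 (49.5) and MG1 (38.2) did not differ beyond counting error. MG1 (79.4) did not differ from EC1 beyond it at E17.5.

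**Figure D3:**
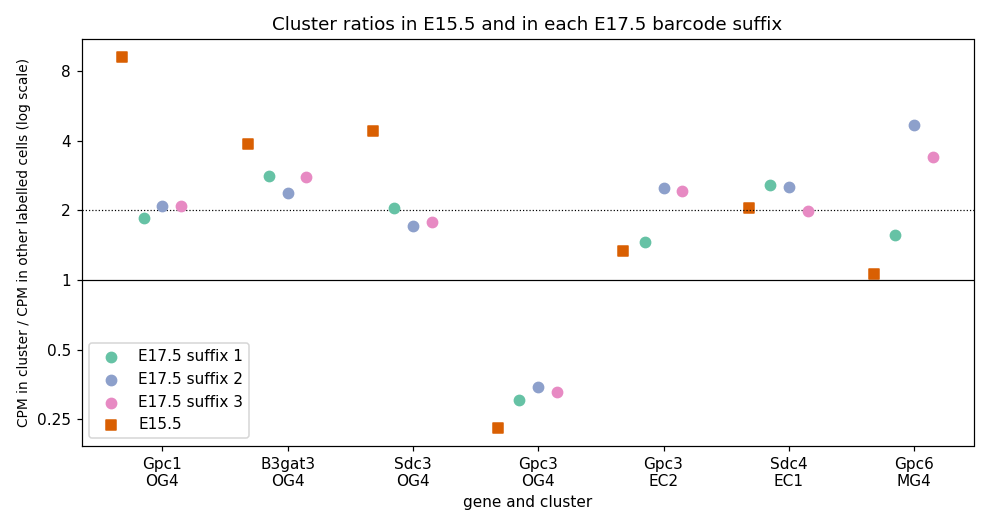
Ratio of a member's CPM in 1 cluster to that in the other labelled cells, on a log axis, for 7 pairs of gene and cluster. Squares are the E15.5 library and circles the 3 E17.5 suffixes, the dotted line marks 2, and *Gpc3* in EC2 has suffix 1 well below suffixes 2 and 3. The point of *Gpc6* in MG4 for suffix 1 is also lower, but it rests on 6 UMIs in 7 cells, and its CPM interval overlaps those of the other suffixes.

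Counted over all 15 clusters, 3 of the 9 members tested were at least 2 times the other labelled cells in a cluster in both libraries (*Gpc1* and *B3gat3* in OG4 and *Sdc4* in EC1). By the same rule 20.7% of the 11868 genes tested were called, so the share of members is not far from the background. When cells were thinned to 3000 UMIs only *B3gat3* was called, with *Gpc1* in OG4 at 1.98 at E17.5 and *Sdc4* in EC1 at 1.98 at E15.5. For OG4 alone, 2 of the 9 members were called, against 3.02% of all genes. The highest cluster was the same in both libraries for 3 members, against 32% of all genes, and the lowest cluster for 5 (*Gpc1*, whose lowest values are at background, *Gpc3*, *Sdc1*, *Sdc2* and *Sdc4*), against 22.5%. These are counts over 9 genes, and with so few they say nothing about the families as a whole. *Gpc1* fell under the limit of 2 in OG4 in suffix 1 of E17.5 (1.85), and *Sdc4* in EC1 in suffix 3 (1.98).

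The make-up of the glypican and syndecan UMIs followed the same division. UMIs count transcript ends and are not corrected for how well each transcript is captured, so shares are compared between clusters and not between genes. *Gpc3* had 80.1% of these UMIs in EC2 at E15.5 and 27.9% in OG4, and 76.5% and 28.4% at E17.5. *Gpc1* had 18.2% in OG4 at E15.5 and 18% at E17.5, against at most 5.53% and 9.25% in any other cluster. Glypicans together had 56.5% (53.5–59.5) and 55.5% (54.4–56.7) in OG4, against 86.8% (86.1–87.4) and 87.3% (86.7–87.9) in EC2. The summed level of the 2 families in OG4 was 615 CPM (579–652) at E15.5, where PO2 at 630 CPM (561–705) and PO1 at 682 CPM (647–719) overlapped it, and 680 CPM (665–696) at E17.5, below every other cluster. It reached 1375 CPM (1340–1412) in EC4 at E15.5, and 1509 CPM (1456–1564) in MG3 at E17.5, where MG2 at 1487 CPM and EC4 and EC3 at 1442 and 1424 overlapped it.

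**Figure D4:**
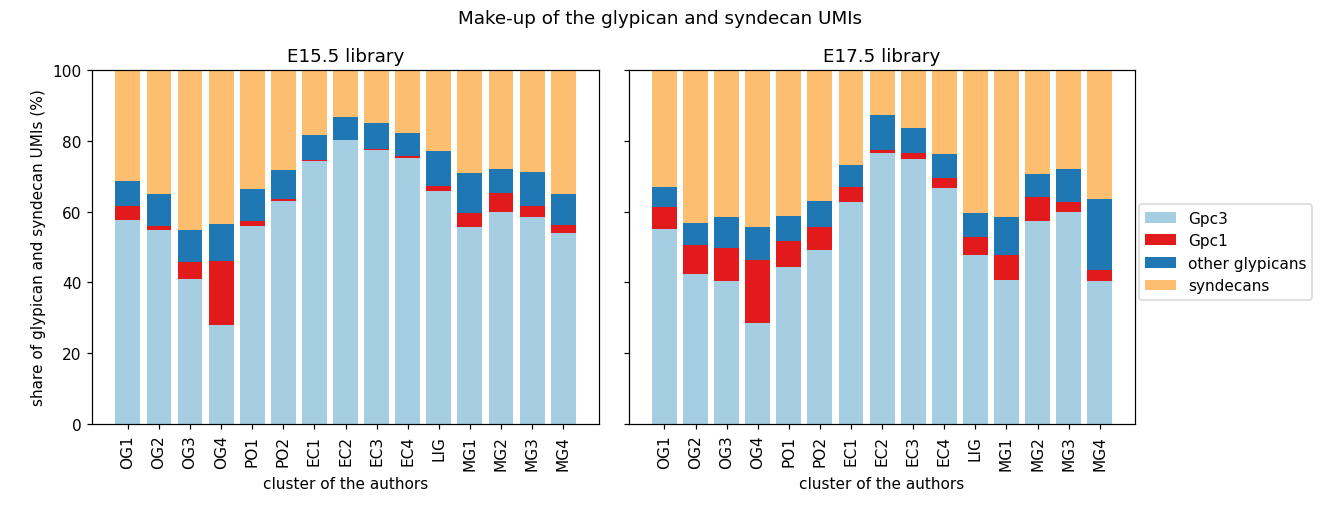
Share (%) of all glypican and syndecan UMIs of a cluster that belonged to *Gpc3*, *Gpc1*, the other glypicans and the syndecans, at E15.5 (left) and E17.5 (right). The *Gpc3* share is smallest in OG4 (27.9% and 28.4%) and the *Gpc1* share is largest there (18.2% and 18%).

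Between the libraries, *Gpc1* was the member that differed most. Its mean ratio of E17.5 to E15.5 over the 15 clusters, with equal weights, was 3.87, and it was higher at E17.5 in 15 of 15 clusters, 11 of them beyond counting error. The ratio was not even, with 1.09 (0.941–1.27) in OG4, 1.16 in MG3 and 1.62 in MG2, but 9.11 (6.34–13.5) in OG2, 10.8 in EC2 and 16.7 in EC3. The 3 suffixes gave 3.91, 3.79 and 3.83. Its level in myeloid-like cells was also higher at E17.5, as given above, and the part of free RNA in the ratios of the clusters with low levels was not tested.

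*Sdc2* was likewise higher at E17.5 in 15 of 15 clusters, 14 of them beyond counting error, with a mean ratio of 1.82 and a range from 1.18 in MG4 to 2.51 in MG1. Pooled over all labelled cells its ratio was 2.17 (2.1–2.25). The remaining members had mean ratios between 0.961 for *B3gat3* and 1.23 for *Sdc3*, against a median of 1.02 over all genes tested. Pooled over all labelled cells, 3 of these lay on the other side of 1, with *Gpc3* at 0.752 (0.742–0.762) in place of 1.03, *Gpc6* at 0.908 (0.862–0.957) in place of 1.05 and *B3gat3* at 1.15 (1.08–1.23) in place of 0.961. No direction between the libraries is given for these members. With a limit of 2, 1 member of 9 was higher at E17.5, against 4.49% of all genes, and none was lower, against 8.2%. In OG4, *Sdc3* was lower at E17.5 by a ratio of 0.521 (0.425–0.643) and *B3gat3* by a ratio of 0.731 (0.619–0.867). Both were at a lower CPM in osteoblasts at E17.5, while *Gpc1* did not differ there beyond counting error.

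**Figure D5:**
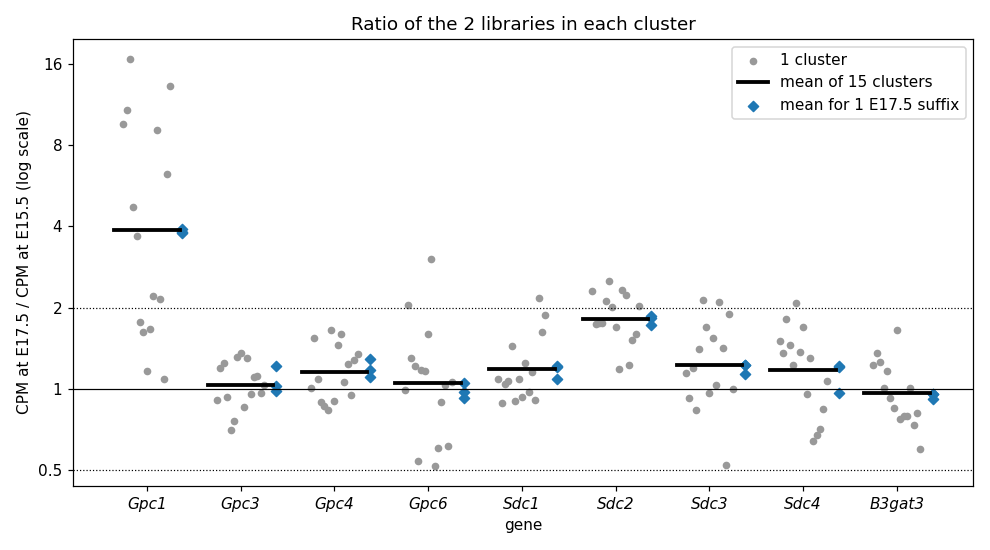
Ratio of the E17.5 to the E15.5 CPM on a log axis, with a gray point for each cluster, a black line for the mean of the 15 clusters and a blue diamond for the mean with each E17.5 suffix. *Gpc1* lies between 1.09 and 16.7, all *Sdc2* points lie above 1, and the other members scatter around 1.

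The other enzymes of the linker did not share the OG4 pattern of *B3gat3*, apart from one. *B4galt7* and *B3galt6*, which add the galactoses before the step of B3gat3, were at 18.8 and 6.63 CPM in OG4 at E15.5, and at 38.2 and 12.8 CPM at E17.5. *Xylt1* and *Xylt2*, which start the linker on the core protein, were at 8.84 and 13.8 CPM at E15.5 and at 4.38 and 11.1 CPM at E17.5 in OG4, and *Xylt1* was 3.45 and 2.53 times the other labelled cells in MG2. *Pxylp1*, the phosphatase that acts on the xylose of the linker, was at 47.5 CPM in OG4 at E15.5 and at 83.6 CPM at E17.5, 4.46 and 3.3 times the other labelled cells. *Fam20b*, the kinase that adds this phosphate, was at 18.8 and 11.9 CPM in OG4.

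Over the lists of heparan sulfate and chondroitin sulfate genes, 46 of 54 genes had enough UMIs, and 15 of them were at least 2 times the other labelled cells in a cluster in both libraries, against the background of 20.7%. Of the 46, 6 were called in OG4, against 3.02% of all genes: *Pxylp1*, *Hs3st6*, *Hpse*, *Notum*, *Chst11* and *Chst15*. The median ratio of OG4 to other labelled cells over the 46 genes was 0.589 at E15.5 and 0.694 at E17.5. Over all genes tested it was 0.687 and 0.835.

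The OG4 genes act at different steps. *Chst11*, a chondroitin sulfotransferase, was at 40.3 and 24 CPM in OG4, 15.3 and 10 times the other labelled cells. *Chst15*, which adds a further sulfate to chondroitin chains, was 4.42 and 4.44 times the other labelled cells. *Hpse*, heparanase, which cuts heparan sulfate chains, was at 40.9 CPM in OG4 at E15.5, but at E17.5 it was at 14.6 CPM (12.4–17.1) there and at 16.1 CPM (13.4–19.1) in EC2. *Notum*, a secreted esterase that inactivates Wnt and was first linked to the release of glypicans, was at 17.7 and 9.34 CPM in OG4, and at 1.47 and 8.68 CPM in EC4, which overlapped OG4 at E17.5. *Hs3st6*, a heparan sulfate sulfotransferase, differed in its leading clusters, with 26.9 CPM in PO2, 22.4 in OG1 and 6.63 in OG4 at E15.5. At E17.5 it was at 42.4 CPM in OG4 and at most 1.38 in any other cluster. *Chsy1*, a chondroitin polymerase, was at 98.9 and 49.5 CPM in OG4, and its ratio of 1.9 at E17.5 was under the limit.

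EC2, where *Gpc3* was high and *Sdc2* and *Sdc4* had their lowest values, had 4 genes of the lists. *Cd44*, a hyaluronan receptor that can carry such chains, was at 317 and 356 CPM there. *Hs6st2*, a heparan sulfate sulfotransferase, was at 89.8 and 56.9 CPM, *Col18a1*, a basement membrane proteoglycan, at 19.1 and 7.17 CPM, and *Ndst3*, which starts chain sulfation, at 13.7 and 5.28 CPM. The sulfotransferases *Hs3st1*, *Hs3st3b1* and *Hs3st5* were called in EC3, EC4 and LIG, at ratios of 2.05 and 3.56, 3.65 and 4.27, and 3.43 and 4.57. *Csgalnact1*, which starts chondroitin chains, was called in MG1, MG2 and MG3.

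Of the chain polymerases and of the cytoplasmic partners of syndecans, none was called. *Ext1*, a polymerase gene, was just under the limit in EC2, at 2 times (1.85–2.16) the other labelled E15.5 cells after rounding, and 2.94 times (2.68–3.22) at E17.5. The polymerase gene *Ext2* was at 102 and 106 CPM over all labelled cells of the libraries, and the syndecan partner *Sdcbp* (syntenin) at 182 and 121 CPM. Other genes with the most UMIs of their list were *B4galt7* for the linker, *Hspg2* (perlecan) for the secreted cores and *Chpf* for the chondroitin branch. Among those for chain sulfation it was *Hs6st2* at E15.5 and *Hs2st1* at E17.5.

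The sulfatases that trim heparan sulfate chains differed between the libraries in opposite directions. *Sulf1* had a mean ratio of 0.284 over the clusters and was lower at E17.5 in 15 of 15, 13 of them beyond counting error, with 168 and 155 CPM in EC2 but 43.4 and 3.78 CPM in OG2. *Sulf2* had a mean ratio of 1.77 and was higher in 12 clusters, all beyond counting error, and its levels in the meningeal clusters were 170 to 302 CPM at E15.5 and 215 to 275 CPM at E17.5. Of the 46 genes, 5 were at least 2-fold lower at E17.5 by the mean of clusters, against 8.2% of all genes (*Sulf1*, *Ndst3*, *Hs3st6*, *Col18a1* and *Tgfbr3*), and 1 was at least 2-fold higher, against 4.49% (*Hs3st3b1*). Pooled over all labelled cells, *Hs3st6* lay on the other side, with a ratio of 1.69 (1.41–2.04), and it was 6.39 times higher at E17.5 in OG4. *Hs3st3b1* was at 1.35 when pooled.

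The genes most like each member over the 15 clusters were sought by the smaller of the 2 libraries' Pearson correlations of log2(CPM + 1), among 9649 genes. The clusters share libraries and depth, and the correlations are descriptions. For *B3gat3* these were the collagen genes *Col11a2* (r = 0.857 at E15.5 and 0.827 at E17.5), *Col24a1* and *Col22a1*. For *Gpc3* they were *Cd34* (r = 0.948 and 0.964), *Chst12*, a chondroitin sulfotransferase of the lists, and *Loxl1*. *Gpc6* was most like *Nid1* (r = 0.884 and 0.883), *Maged2* and *Man1a*, and *Sdc1* most like *Wfdc2* (r = 0.877 and 0.882), *Arxes1* and *Ctf1*.

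Likeness was weaker for the other members. *Gpc1* was most like *Rps21* (r = 0.8 and 0.856) and *Kalrn*, *Sdc3* most like *Nuak1* (r = 0.823 and 0.786), *Kcnk1* and *Ell2*, and *Sdc2* most like the mitochondrial genes *mt-Nd2* (r = 0.8 and 0.68) and *mt-Cytb* and *Nav2*. *Gpc4* was most like *Mertk* (r = 0.744 and 0.698), *Pcolce* and *Fam46a*, and *Sdc4* most like *Kazald1* (r = 0.653 and 0.679), *Ncam1* and *Scarf2*. Between members, *B3gat3* and *Sdc3* had r = 0.654 and 0.503, and *Gpc1* and *Gpc3* had r = -0.54 and -0.627. The levels over the clusters in the E15.5 library were most like those at E17.5 for *Gpc3* (r = 0.919) and least for *Gpc4* (r = 0.505).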

How the data were processed

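The authors deposited 1 matrix of UMI counts per stage, raw and before their cell filters, and a table that assigns osteogenic and mesenchymal cells to clusters, in which the deposited percent values are mitochondrial, Hbb and Hba shares. Libraries were made with the 10x Genomics Chromium 3′ v2 kit. The submitters' processing notes name the mm10 build, Cell Ranger and Seurat 3.2.0, whereas Cell Ranger 3.1.0 is given inside the E15.5 matrix. Of 5340 E15.5 cells in the table, 5 were not found in the matrix. UMIs per cell equaled the table's for all 6830 cells at E17.5 and for none at E15.5 (median 8510 in the matrix and 11513 in the table), so the E15.5 counts are not those behind the table. The median at E17.5 was 12302. Barcode sequences shared by labelled cells of both libraries numbered 42.

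UMIs were summed per cluster and library and divided by the cluster's total. Genes with at least 50 UMIs in each library, 11868 of 26514 shared symbols, were set against a 2-fold limit and are called tested. Ratios have exact conditional binomial 95% intervals, shares Clopper-Pearson ones. With 1 library per stage, no p-value was computed. Ratios between libraries are geometric means over 15 clusters, with 0.5 UMIs in place of 0. Unlabelled cells were kept with at least 1000 UMIs, 1000 genes, up to 7.5% mitochondrial UMIs and up to 3% from Hbb and Hba genes. They were clustered (Leiden, 2000 genes, 30 components, 30 neighbors, resolution 1). A cluster was named after a type when at least 3 of its markers, and most of its list, were 2-fold up. It stayed unnamed where another type had more markers among the 10 leading genes, or where depth was low and no marker led. Scrublet's own threshold called 415 E15.5 cells but only 9, 28 and 4 in the E17.5 suffixes, so cells from the 94th percentile of scores of their suffix were left out in 1 alternative. The members and lists were chosen with earlier results of these data known. Named genes are the members, list genes called in both libraries or with the most UMIs of their list, and 3 like genes per member with at least 200 UMIs in each library, of which 1 is not reported here. *Ext1*, *Chsy1*, *Fam20b*, *B3galt6*, *Xylt2*, *Sulf2* and the genes that differed by library were named after their values were seen. The tools were scanpy 1.11.5 with anndata 0.12.19, scikit-image 0.26.0, igraph 0.11.9, scipy 1.17.1, matplotlib 3.10.9, pandas 2.3.3 and numpy 2.4.6 under Python 3.11.15, and the computations were tested on simulated data. Alternatives covered normalization, depth, cell filters, doublets, suffixes, clusters, limits and gene matching.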

Additional observations from a re-analysis of the deposited data

Results flagged for a closer look

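Cells that the authors did not label hold more *Gpc4* and *Sdc4* than any labelled cluster, in both libraries, and were outside the comparisons above. *Gpc4* was at 137 CPM (122–153) at E15.5 and 105 CPM (92.4–120) at E17.5 in pericyte-like cells, against at most 61.1 and 51 CPM in a labelled cluster. *Sdc4* was at 192 and 233 CPM in myeloid-like cells and at 285 and 335 CPM in chondrocyte-like cells, against at most 71.9 and 96.1 CPM in a labelled cluster. The 3 chondrocyte-like clusters at E15.5 had none of the listed chondrocyte markers among their 10 leading genes, and 1 of them had *Tac1*, a marker of LIG. At E17.5, a cluster of 197 of the 318 chondrocyte-like cells also had none there, and its leading genes included *Clu* and *Prg4*. An E15.5 cluster of 186 cells led by *Prg4* stayed unnamed. The values of chondrocyte-like cells are thus not compared between stages. *Gpc6* was also higher in chondrocyte-like cells, at 123 CPM (116–130) and 173 CPM (159–188), than the highest labelled values of 71.7 and 151 CPM, although the intervals overlapped at E17.5 (134–170 in MG4).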

How the results depend on the processing

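No member ratio past 2-fold changed direction. Ratios between libraries that were nearer to 1 crossed it 10 times, for *Gpc3*, *Gpc6*, *Sdc4* and *B3gat3*, and ratios of clusters 1 time, for *Gpc4* in MG2. Of 117 ratios between libraries under an alternative, 92 stayed within counting error of the value given, 25 moved, 0 by over 1.5 times, and 2 crossed the limit of 2, both for *Sdc2*. Members past 2-fold between libraries then numbered 2 with mean UMIs per cell, 2 with a limit of 1.5 and 2 when pooled over labelled cells, the last an alternative chosen after seeing the data. Of 214 ratios of a cluster to the other labelled cells, 177 stayed within counting error, 37 moved, 6 by over 1.5 times, and 12 crossed the limit of 2. With mean UMIs per cell, which does not remove depth, the E17.5 ratios in OG4 were 3.13 for *Gpc1*, 2.74 for *Sdc3* and 4.02 for *B3gat3*, and that of *Sdc4* in EC1 was 1.36. In suffix 1 alone, *Gpc3* in EC2 was 1.46 and *Gpc6* in MG4 was 1.57, the latter from 6 UMIs in 7 cells. Members called in a cluster numbered 1 when cells were thinned to 3000 UMIs (*Gpc1* in OG4 at E17.5 and *Sdc4* in EC1 at E15.5 were then 1.98) and 6 with a limit of 1.5, members with the same highest cluster numbered 5 when thinned, and list genes called numbered 28 with a limit of 1.5. No paired analysis was possible because each stage has 1 library. Intervals leave out the spread between embryos and batches, and the 28 MG1 cells at E15.5 limit that cluster most.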
